A study of Mus musculus with 6 samples.

Results

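The genes described here are 10 mouse genes whose products mark mitochondria for mitophagy or link them to the autophagosome, the membrane that engulfs them. They were chosen by name from the deposited gene table, which holds 54532 genes, and are *Pink1*, *Fundc1*, *Bnip3*, *Bnip3l*, *Phb2*, *Sqstm1*, *Optn*, *Map1lc3a*, *Map1lc3b* and *Tomm20*. RNA-seq was performed on 6 samples of MLE12 cells, an immortalized mouse lung epithelial line with features of alveolar type 2 cells, labelled with the strain C57BL/6J and kept in HITES medium. The 3 control samples (Ctrl shRNA) were infected with empty lentiviral vectors, and the 3 knockdown samples (Idh3α shRNA + Slc25a1 shRNA) were infected at the same time with an *Idh3a*-silencing and an *Slc25a1*-silencing lentivirus. The multiplicity of infection was 50 for each lentivirus, so the knockdown cells received 2 viruses against 1 in the controls, and virus dose and knockdown cannot be told apart. All cells received fresh medium after 16 h and were cultured for a further 80 h. The study uses this double knockdown to make citrate build up in mitochondria, and the comparison asks whether transcripts of the mitophagy machinery differed between these cells and the controls.

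Mitophagy is the removal of damaged or surplus mitochondria by autophagy. In one route, the kinase PINK1 collects on mitochondria that fail to import proteins and starts the building of ubiquitin chains that adaptors such as p62 and optineurin bind. In another, receptors built into the mitochondrial membrane (FUNDC1, BNIP3, NIX and, on the inner membrane, prohibitin 2) bind the LC3 proteins of the growing autophagosome directly. In alveolar type 2 cells, which spend much energy on surfactant, this turnover is known for maintaining the mitochondrial pool.

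*BNIP3* is a textbook target of hypoxia-inducible factors, which recognise the core letters ACGTG, and CACGTG is the E-box that TFEB and related factors bind. The 250 bases upstream of the annotated start were searched for both, on both strands, and CACGTG holds ACGTG on either strand. RefSeq promoters (GRCm38.p6) were matched for 8 of the 10 genes and were not matched for *Bnip3l* and *Map1lc3a*. ACGTG was found for 3 of the 8, namely *Bnip3*, *Tomm20* and *Phb2*, for 16.6% of all 32851 promoters, and for 21.3% of 12645 promoters of protein-coding genes tested. CACGTG was found for *Bnip3* and *Tomm20*, against 6.02% of all promoters and 8.19% of those of protein-coding genes tested. The 60-base windows holding the letters are shown for these 3 genes and, for comparison with *Bnip3*, for 3 hypoxia-responsive genes described at the end, with the matched letters in capitals.
Bnip3 (chr7:138909582-138909641, minus strand): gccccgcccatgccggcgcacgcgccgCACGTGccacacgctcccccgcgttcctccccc
Tomm20 (chr8:126946015-126946074, minus strand): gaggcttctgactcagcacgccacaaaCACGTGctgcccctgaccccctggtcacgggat
Phb2 (chr6:124712063-124712122, plus strand): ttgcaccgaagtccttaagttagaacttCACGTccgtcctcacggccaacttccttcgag
Slc2a1 (chr4:119108681-119108740, plus strand): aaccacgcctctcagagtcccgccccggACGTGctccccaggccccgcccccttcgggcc
Hk2 (chr6:82774475-82774534, minus strand): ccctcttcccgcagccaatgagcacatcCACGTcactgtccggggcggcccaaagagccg
Ldha (chr7:46845742-46845801, plus strand): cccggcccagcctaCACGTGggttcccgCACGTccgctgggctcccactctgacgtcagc
RefSeq lists 2 starts for *Ldha*, and the window of the second held 0 matches. A match is a run of letters and not a binding site. The windows of *Pink1*, *Fundc1*, *Sqstm1*, *Optn* and *Map1lc3b* did not hold ACGTG in the 250 bases searched.

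Each sample had between 27273502 and 28535653 counts assigned to genes. The library Ctrl shRNA replicate 2 stood apart from the other 5: its 100 most abundant genes took 27.2% of all counts against 12.6% to 12.9%, mitochondrially encoded genes took 6.49% against 1.57% to 1.80%, and 16681 genes had a count against 19902 to 23147. The edgeR values of the 10 genes and of the pathway genes named are therefore given for all 6 libraries and again without that library. Of 12 alveolar type 2 markers, 8 had at least 10 counts in every library, including *Sftpc* and *Nkx2-1*, while *Sftpd* was at 0 throughout. The summed level of these markers, in CPM (read counts scaled to the effective library size), was 646 to 687 in Ctrl shRNA and 613 to 650 in the knockdown. None of the 8 tested passed the edgeR threshold (adjusted p under 0.05) with all libraries. Of 9 tested without Ctrl shRNA replicate 2, *Sftpc*, which encodes surfactant protein C, fell (log2 fold change -0.65 ± 0.12, edgeR adjusted p = 0.0438, against -1.07 ± 0.31 and 0.315 with all libraries), and *Etv5*, a transcription factor of these cells, rose (0.57 ± 0.10, adjusted p = 0.0312, against 0.62 ± 0.10 and 0.166). Of 6 leukocyte markers, *Ptprc*, *Adgre1* and *Itgam* were at 0 in all 6 libraries. The summed level of all 6 was 1.74 to 2.41 CPM in Ctrl shRNA and 2.44 to 2.92 CPM in the knockdown, and neither the 1 tested with all libraries (log2 fold change 0.51) nor the 2 tested without Ctrl shRNA replicate 2 (median -0.10) passed the edgeR threshold. The summed fibroblast markers, mostly *Dcn*, reached 1234 CPM in Ctrl shRNA replicate 2, against 346 and 377 CPM in Ctrl shRNA replicates 1 and 3 and 317 to 345 CPM in the knockdown, and *Col3a1* was at 0. Endothelial markers summed to 37.1 to 46.8 CPM in Ctrl shRNA and 32.5 to 33.9 CPM in the knockdown, club and ciliated markers to 5.23 to 6.23 and 4.05 to 4.47 CPM, and general epithelial markers to 1051 to 1185 and 1184 to 1296 CPM. The groups did not overlap for the fibroblast, endothelial, club and ciliated, and leukocyte sums, as was the case for 25.4% of single genes tested. The nearest libraries of the 2 groups were almost level for fibroblast markers (346 CPM in Ctrl shRNA, 345 in the knockdown) and leukocyte markers (2.41 and 2.44 CPM). Outside the alveolar type 2 list, none of the markers tested passed the edgeR threshold, and DESeq2 with all libraries called 1 of the club and ciliated markers, with lower values in the knockdown. The part of these markers in the results was not tested.

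The targeted genes were examined first. *Idh3a*, which encodes the catalytic subunit of the NAD-dependent isocitrate dehydrogenase, was at 79.8, 137 and 93.0 CPM in Ctrl shRNA replicates 1, 2 and 3, against 58.5, 57.9 and 55.5 CPM in knockdown cells. *Slc25a1*, the mitochondrial citrate carrier, was at 103, 98.7 and 108 CPM and at 68.9, 69.6 and 63.0 CPM, in the same order. In CPM, every knockdown library lay below every control library for both genes. Before scaling, the *Slc25a1* count of 1949 in Ctrl shRNA replicate 2 lay inside the knockdown range of 1867 to 2113. Without Ctrl shRNA replicate 2, both fell, by 34.1% for *Idh3a* (log2 fold change -0.60 ± 0.08 (SE), edgeR adjusted p = 0.0142) and by 36.9% for *Slc25a1* (-0.66 ± 0.07, adjusted p = 0.00649). Each of these calls was lost under some alternative processing without that library. With all 6 libraries the log2 fold changes were -0.85 ± 0.20 (edgeR adjusted p = 0.254) for *Idh3a* and -0.62 ± 0.08 (adjusted p = 0.104) for *Slc25a1*, and DESeq2 called both (adjusted p = 0.0205 and 5.8e-06). Nothing in the labels says that replicates came from separate cultures, so these p-values measure the spread between the 6 samples, which may be technical. In whole cultures, fewer cells of a type and less RNA per cell cannot be told apart.

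All 10 mitophagy genes passed the filter on low counts. None of the 10 passed the edgeR threshold (adjusted p under 0.05), either with all 6 libraries or without Ctrl shRNA replicate 2. In the fit without it, *Pink1*, *Map1lc3a* and *Bnip3l* were 26.2%, 20.5% and 16.6% lower in the knockdown and *Optn* was 16.6% higher, while the other 6 were within 10.9% of the controls. Over all genes tested, the threshold was passed by 0.0653% of 15307 genes with all libraries and by 1.79% of 15709 genes without that library. At an unadjusted p under 0.05, edgeR gave the same 4 genes in both fits, *Pink1*, *Bnip3l* and *Map1lc3a* with lower values and *Optn* with higher values in the knockdown, against 14.1% and 19.9% of all genes tested. DESeq2 called 1 of the 10 with all libraries, *Pink1* (2.51% of all genes tested were called), and 3 of the 10 without Ctrl shRNA replicate 2, *Pink1*, *Bnip3l* and *Map1lc3a* (6.58% of all genes tested were called). Limma voom with sample quality weights, in which Ctrl shRNA replicate 2 had a weight of 0.101, called those 3 and *Optn* (15.0% of all genes tested were called). In edgeR refits without Ctrl shRNA replicate 2, 2 of the 10 were called with no count filter (5.16% of all genes tested) and 1 with library size as the only scaling (1.80%). None were called with median-of-ratios size factors (1.79%), the replicate block (3.03%) or limma on log2(FPKM + 1) (0.251%). The same held when any knockdown replicate was also left out (0.129% to 0.762%). In CPM, the control and knockdown libraries did not overlap for *Pink1*, *Bnip3l*, *Map1lc3a* and *Optn*, with or without Ctrl shRNA replicate 2. This was also the case for 25.4% of all genes tested with that library and 37.6% without it. For *Pink1* and *Map1lc3a* the order with all libraries rested on the scaling of that library.

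**Figure D1:**
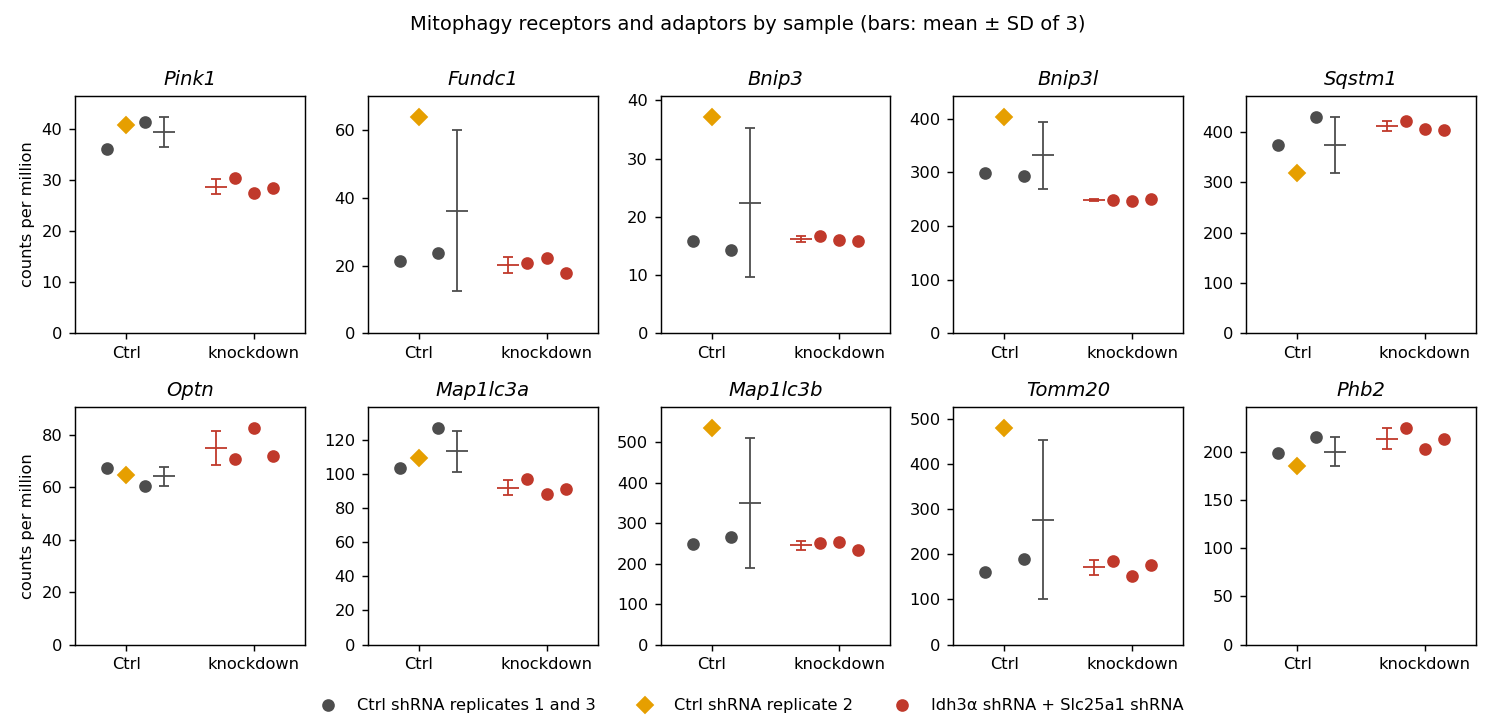
CPM of each of the 10 genes (vertical axes from 0) in Ctrl shRNA and in Idh3α shRNA + Slc25a1 shRNA cells; points are libraries, and the bars beside them give the mean ± SD of 3. Knockdown points sit below all control points for Pink1, Bnip3l and Map1lc3a and above them for Optn, while the orange diamond of Ctrl shRNA replicate 2 is far above every other point for Fundc1, Bnip3, Map1lc3b and Tomm20.

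*Pink1* (chromosome 4, 138313409 to 138326307, minus strand) encodes the kinase that senses mitochondrial damage and starts the ubiquitin route. Its level was 36.0, 40.7 and 41.3 CPM in Ctrl shRNA replicates 1, 2 and 3 (mean 39.3 ± 2.92 (SD), n = 3), against 30.3, 27.3 and 28.4 CPM in knockdown cells (28.7 ± 1.5, n = 3). In CPM, all 3 knockdown libraries were below all 3 controls, and Ctrl shRNA replicate 2 lay between the other controls. This order rests on the scaling of Ctrl shRNA replicate 2. Its count before scaling, 804, was below the knockdown counts of 901, 829 and 842. The fitted log2 fold change was -0.46 ± 0.09 (SE, edgeR adjusted p = 0.209) with all libraries and -0.44 ± 0.09 (adjusted p = 0.0532) without that library, a value 26.2% lower. DESeq2 gave adjusted p = 0.0195 with all libraries and 0.00623 without it. Across all alternatives the adjusted p ran from 0.00792 to 0.699 with all libraries and from 0.00271 to 0.260 without the library. *Pink1* had the lowest adjusted p of the 10 genes in both edgeR fits.

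Among listed regulators of the PINK1 route, which include deubiquitinases that trim the ubiquitin chains and proteases that cut PINK1, 22 were tested. Their median log2 fold change was 0.05 with all libraries and 0.02 without Ctrl shRNA replicate 2, against -0.01 and -0.02 over all genes tested, and none passed the edgeR threshold. The 2 with the lowest p were *Afg3l2*, a protease of the inner membrane (0.23 ± 0.07, adjusted p = 0.142), and *Usp15*, a deubiquitinase that opposes this route (0.19 ± 0.07, adjusted p = 0.169), both without the library. With all libraries they were at 0.25 ± 0.07 (adjusted p = 0.302) and 0.07 ± 0.11 (adjusted p = 0.760).

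The outer membrane receptors gave 2 patterns. *Fundc1* (chromosome X, 17556564 to 17572325, minus strand), the receptor that binds LC3 under hypoxia, was at 21.3, 63.8 and 23.6 CPM in Ctrl shRNA replicates 1, 2 and 3 (36.3 ± 23.9), against 20.6, 22.1 and 17.7 CPM in knockdown cells (20.2 ± 2.26). Ctrl shRNA replicate 2 was 2.84 times the mean of the other controls, and the other 5 libraries overlapped. The log2 fold change was -0.84 ± 0.43 (SE, edgeR adjusted p = 0.384) with all libraries and -0.17 ± 0.11 (adjusted p = 0.444) without that library. *Bnip3* (chromosome 7, 138890836 to 138909519, minus strand), a receptor of the BCL2 family induced in hypoxia, followed the same pattern. Its level was 15.9, 37.1 and 14.2 CPM over the controls (22.4 ± 12.7), against 16.8, 16.0 and 15.9 CPM in knockdown cells (16.2 ± 0.474). Here Ctrl shRNA replicate 2 was 2.46 times the mean of the other controls, and the direction turned with it, from -0.46 ± 0.37 (adjusted p = 0.531) with all libraries to 0.10 ± 0.10 (adjusted p = 0.631) without it.

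*Bnip3l* (chromosome 14, 66985239 to 67008877, minus strand) encodes NIX, the BNIP3 paralog known for clearing mitochondria from maturing red blood cells. It was at 298, 403 and 293 CPM in Ctrl shRNA replicates 1, 2 and 3 (331 ± 61.8), against 248, 246 and 249 CPM in knockdown cells (248 ± 1.58). The knockdown libraries lay close together and below every control, and Ctrl shRNA replicate 2 was the highest. The fitted log2 fold change was -0.42 ± 0.14 (SE, edgeR adjusted p = 0.339) with all libraries and -0.26 ± 0.06 (adjusted p = 0.0834) without that library, a value 16.6% lower. Without the library, DESeq2 gave adjusted p = 0.00757, and the alternatives ran from 0.00757 to 0.255. A pseudogene, *Bnip3l-ps*, carried counts equal to 6.45% of those of *Bnip3l*, so the split of reads between the gene and its copy is uncertain. The pseudogene was at 18.5, 25.8 and 21.6 CPM over the controls, against 14.9, 14.9 and 16.4 CPM in knockdown cells (log2 fold change -0.39 without Ctrl shRNA replicate 2, adjusted p = 0.111).

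*Phb2* (chromosome 6, 124712336 to 124716950, plus strand), the inner membrane receptor exposed when the outer membrane ruptures, was at 199, 185 and 215 CPM over the controls (199.9 ± 15.0), against 224, 203 and 214 CPM in knockdown cells (213 ± 10.8). The groups overlapped, and the log2 fold change was 0.09 ± 0.09 (edgeR adjusted p = 0.593) with all libraries and 0.03 ± 0.07 (adjusted p = 0.834) without Ctrl shRNA replicate 2. A list of 16 other genes around these receptors, 15 of them tested, held receptors such as *Fkbp8* and *Bcl2l13*, kinases and a phosphatase that act on receptors, mitochondrial fission genes and lipid enzymes, and none passed the edgeR threshold. Their median log2 fold change was 0.01 with all libraries and -0.01 without the library. The 2 with the lowest p without it were *Phb*, the partner subunit of prohibitin 2 (0.20 ± 0.08, adjusted p = 0.197), and *Fundc2*, the paralog of FUNDC1 (-0.26 ± 0.10, adjusted p = 0.207). With all libraries *Phb* was at -0.01 ± 0.18 (adjusted p = 0.988), on the other side of 0, and *Fundc2* at -1.23 ± 0.56 (adjusted p = 0.361). *Fundc2* was at 196 CPM in Ctrl shRNA replicate 2 and at 41.8 to 56.0 CPM in the other 5 libraries.

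**Figure D2:**
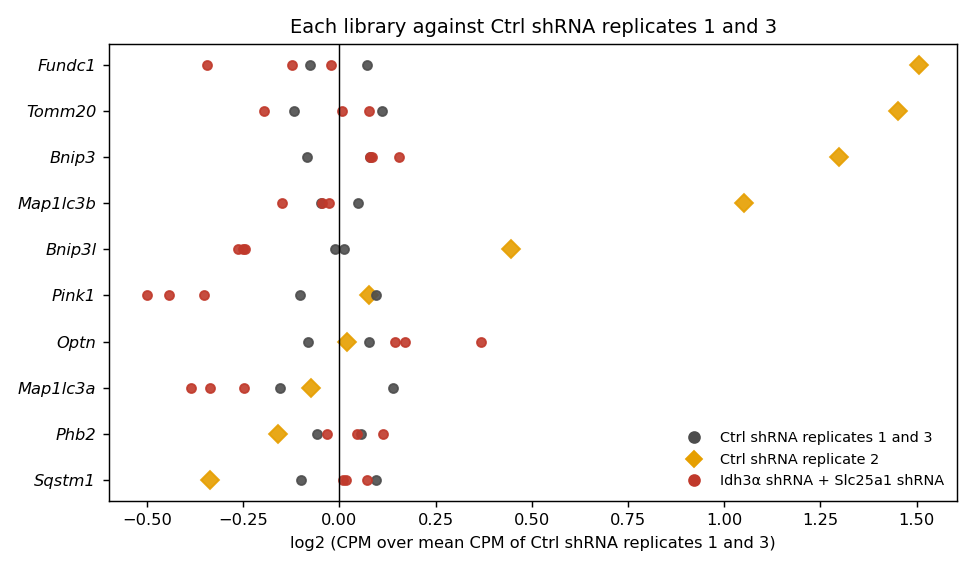
Each library's CPM on a log2 scale relative to the mean of Ctrl shRNA replicates 1 and 3 (horizontal axis), with the 10 genes ordered by the value of Ctrl shRNA replicate 2 (orange diamonds). That library lies at 1.51 for Fundc1, 1.45 for Tomm20, 1.3 for Bnip3 and 1.05 for Map1lc3b and at -0.34 for Sqstm1, while the other libraries lie between -0.50 and 0.37 over the 10 genes, with the knockdown points of Pink1 at -0.50 to -0.35 and of Map1lc3a at -0.38 to -0.25.

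*Sqstm1* (chromosome 11, 50199366 to 50210827, minus strand) encodes p62, the adaptor that binds both ubiquitin and LC3 and is itself degraded with its cargo. Its level was 375, 318 and 429 CPM in Ctrl shRNA replicates 1, 2 and 3 (374 ± 55.4), against 423, 407 and 404 CPM in knockdown cells (411 ± 9.96). The knockdown values lay inside the range of the controls. The log2 fold change was 0.14 ± 0.13 (SE, edgeR adjusted p = 0.588) with all libraries and 0.02 ± 0.08 (adjusted p = 0.889) without Ctrl shRNA replicate 2, which was the lowest library.

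*Optn* (chromosome 2, 5020642 to 5064051, minus strand) encodes optineurin, the adaptor that recruits the autophagy machinery to ubiquitin-coated mitochondria. It was at 67.4, 64.7 and 60.4 CPM over the controls (64.2 ± 3.50), against 70.6, 82.5 and 71.9 CPM in knockdown cells (75.0 ± 6.51). It was the 1 gene of the 10 for which all knockdown libraries lay above all controls. The fitted log2 fold change was 0.23 ± 0.09 (SE, edgeR adjusted p = 0.352) with all libraries and 0.22 ± 0.09 (adjusted p = 0.230) without Ctrl shRNA replicate 2. Across the alternatives without that library the adjusted p ran from 0.123 to 0.666. A list of 13 other genes, all tested, held adaptors such as *Tax1bp1* and *Ncoa4*, the kinase *Tbk1* with its partners, and regulators such as *Keap1* and *Rb1cc1*. None passed the edgeR threshold, and their median log2 fold change was -0.05 with all libraries and -0.08 without it. The 2 with the lowest p without it were *Calcoco1*, a receptor of the NDP52 family (-0.26 ± 0.07, adjusted p = 0.1, DESeq2 adjusted p = 0.0494), and *Nbr1*, a relative of p62 (-0.21 ± 0.06, adjusted p = 0.136, DESeq2 adjusted p = 0.0593). With all libraries these were -0.09 ± 0.16 (adjusted p = 0.808) and -0.11 ± 0.10 (adjusted p = 0.612).

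*Map1lc3a* (chromosome 2, 155276297 to 155278073, plus strand) and *Map1lc3b* (chromosome 8, 121590361 to 121598760, plus strand) encode LC3A and LC3B, the small proteins that are joined to lipid on the autophagosome and bound by the receptors. *Map1lc3a* was at 103, 109 and 127 CPM in Ctrl shRNA replicates 1, 2 and 3 (113 ± 12.1), against 96.8, 88.0 and 91.0 CPM in knockdown cells (91.9 ± 4.45). In CPM, all knockdown libraries were below all controls. Before scaling, the count of 2159 in Ctrl shRNA replicate 2 was below the knockdown counts of 2880, 2671 and 2698. The log2 fold change was -0.30 ± 0.10 (SE, edgeR adjusted p = 0.338) with all libraries and -0.33 ± 0.09 (adjusted p = 0.117) without Ctrl shRNA replicate 2, a value 20.5% lower. Without that library DESeq2 gave adjusted p = 0.0294, and the alternatives ran from 0.00990 to 0.486.

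*Map1lc3b*, in contrast, was at 249, 534 and 266 CPM over the controls (350 ± 160), against 250, 253 and 232 CPM in knockdown cells (245 ± 10.9). Ctrl shRNA replicate 2 was 2.07 times the mean of the other controls, and the other 5 libraries overlapped. The fitted log2 fold change was -0.51 ± 0.30 (SE, edgeR adjusted p = 0.414) with all libraries and -0.08 ± 0.07 (adjusted p = 0.550) without that library. *Map1lc3b* overlaps the opposite-strand gene *Zcchc14* by 58 bases, *Zcchc14* held counts equal to 50.2% of those of *Map1lc3b*, and the sources used here do not say that counting used strand. Overlapping genes on the opposite strand of *Bnip3*, *Sqstm1*, *Optn* and *Phb2* held at most 1.33% of the counts of the gene they overlap. The 15 other ATG8 genes and conjugation enzymes were all tested, and none passed the edgeR threshold. Their median log2 fold change was -0.06 in both fits. *Gabarap*, an ATG8 protein of the branch beside LC3, had the lowest p without Ctrl shRNA replicate 2, at 199, 332 and 249 CPM over the controls, against 168, 178 and 160 CPM in knockdown cells. Its log2 fold change was -0.42 ± 0.10 (adjusted p = 0.0803, DESeq2 adjusted p = 0.00237) without the library and -0.62 ± 0.19 (adjusted p = 0.318) with it. *Atg10*, which encodes an E2-like conjugation enzyme, came next at -0.39 ± 0.16 (adjusted p = 0.238) without the library and -1.11 ± 0.47 (adjusted p = 0.356) with it. It was at 12.4 CPM in Ctrl shRNA replicate 2 and at 3.07 to 4.15 CPM in the other 5 libraries. Among 16 genes of initiation and nucleation, all tested, none passed, with medians of 0.05 and 0.00. The lowest p values without the library there belonged to *Ulk2*, a kinase that starts autophagy (-0.27 ± 0.09, adjusted p = 0.167), and *Atg2b*, a lipid transfer protein (0.23 ± 0.09, adjusted p = 0.218). With all libraries these were -0.23 ± 0.09 (adjusted p = 0.352) and 0.29 ± 0.10 (adjusted p = 0.339).

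*Tomm20* (chromosome 8, 126930667 to 126945844, minus strand) encodes the outer membrane receptor for imported proteins and is widely used as a marker of mitochondrial mass. It was at 161, 479 and 189 CPM in Ctrl shRNA replicates 1, 2 and 3 (276 ± 176), against 184, 153 and 176 CPM in knockdown cells (171 ± 16.4). Ctrl shRNA replicate 2 was 2.73 times the mean of the other controls, which the knockdown libraries overlapped. The log2 fold change was -0.69 ± 0.42 (SE, edgeR adjusted p = 0.423) with all libraries and -0.04 ± 0.10 (adjusted p = 0.849) without that library.

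Among 25 other genes of mitochondrial protein import, 23 were tested. Their median log2 fold change was -0.37 with all libraries and -0.06 without Ctrl shRNA replicate 2. *Tomm40*, which forms the import pore, was the 1 gene that rose past the threshold without the library. It was at 50.2, 35.7 and 55.6 CPM over the controls, against 72.9, 77.5 and 72.1 CPM in knockdown cells (log2 fold change 0.48 ± 0.08, adjusted p = 0.0229 without the library, and 0.65 ± 0.16, adjusted p = 0.276, with it). *Timm9*, a chaperone of the intermembrane space, had the next lowest p (0.30 ± 0.09, adjusted p = 0.130), and its direction turned with all libraries (-0.11 ± 0.29, adjusted p = 0.867).

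**Figure D3:**
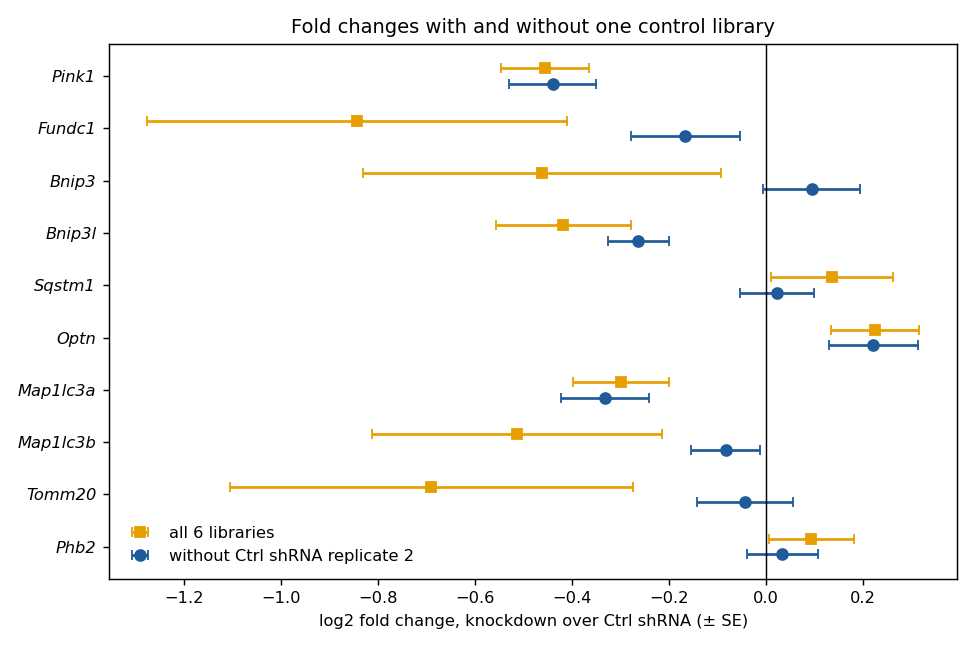
Log2 fold changes of the 10 genes, knockdown over Ctrl shRNA (horizontal axis), with their standard errors, from edgeR with all 6 libraries (orange squares) and without Ctrl shRNA replicate 2 (blue circles). Pink1, Optn and Map1lc3a keep their values, -0.46 and -0.44 for Pink1, while Fundc1, Tomm20 and Map1lc3b move to between -0.17 and -0.04 and Bnip3 crosses 0.

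Over the 10 genes together, the median log2 fold change was -0.44 with all 6 libraries and -0.06 without Ctrl shRNA replicate 2, against -0.01 and -0.02 over all genes tested. The fold changes ran from -0.84 to 0.23 with all libraries and from -0.44 to 0.22 without it, and 7 and 6 of the 10 were below 0, against 51.3% and 52.7% of all genes tested. GC content of the longest transcript was set beside the log2 ratio of Ctrl shRNA replicate 2 to the other controls. Across the 10 genes Spearman's rho between them was -0.77, and across 15296 genes tested it was -0.21. Genes of like GC content differed in that ratio: *Bnip3l* at 41.9% GC was at 0.45 and *Bnip3* at 41.6% at 1.29, while *Map1lc3b* at 51.5% was at 1.05 and *Optn* at 50.7% at 0.02. The lowest ratio, -0.34, was that of *Sqstm1* at 54.0% GC, and *Map1lc3a*, with the highest GC content of 63.1%, was at -0.07. These points share 1 library and base composition, and the part of GC content in the results was not tested.

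Levels between genes were compared per length, in FPKM (fragments scaled by gene length and library size), as a mean over the 6 libraries. *Sqstm1* was the highest at 117 FPKM, above 97.3% of the genes tested, followed by *Map1lc3a* at 87.0, *Bnip3l* at 75.2, *Phb2* at 55.7, *Tomm20* at 45.6 and *Map1lc3b* at 39.6 FPKM. *Optn* at 18.6, *Pink1* at 12.7, *Fundc1* at 12 and *Bnip3* at 8.54 FPKM were lower, the last above 60.8% of the genes tested. The ranges over all 6 libraries overlapped for 6 of the 9 pairs of neighbours in this order. Both genes of a pair were measured in the same libraries, so overlapping ranges do not show equal levels. *Sqstm1* was above *Map1lc3a*, and *Fundc1* above *Bnip3*, in every library, while the other overlapping pairs changed order in some library. When Ctrl shRNA replicate 2 was left out, the ranges overlapped for 2 of the 9 pairs, *Map1lc3a* with *Bnip3l* and *Tomm20* with *Map1lc3b*.

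The balance within each pair of paralogs was compared as a ratio of FPKM values. *Bnip3* to *Bnip3l* was 0.0911, 0.157 and 0.0826 in Ctrl shRNA replicates 1, 2 and 3 and 0.115, 0.111 and 0.109 in the knockdown. *Map1lc3b* to *Map1lc3a* was 0.379, 0.767 and 0.330 in the controls and 0.405, 0.451 and 0.402 in the knockdown. For both ratios the knockdown libraries lay between Ctrl shRNA replicate 2 and the other controls. The difference in the mean log2 ratio, knockdown minus control, was 0.08 for *Bnip3* to *Bnip3l* and -0.13 for *Map1lc3b* to *Map1lc3a*, each with p = 1 in a two-sided exact permutation test of 3 samples against 3. Without Ctrl shRNA replicate 2 the differences were 0.36 and 0.24, each with p = 0.1 in the exact permutation test, the smallest that either design allows.

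**Figure D4:**
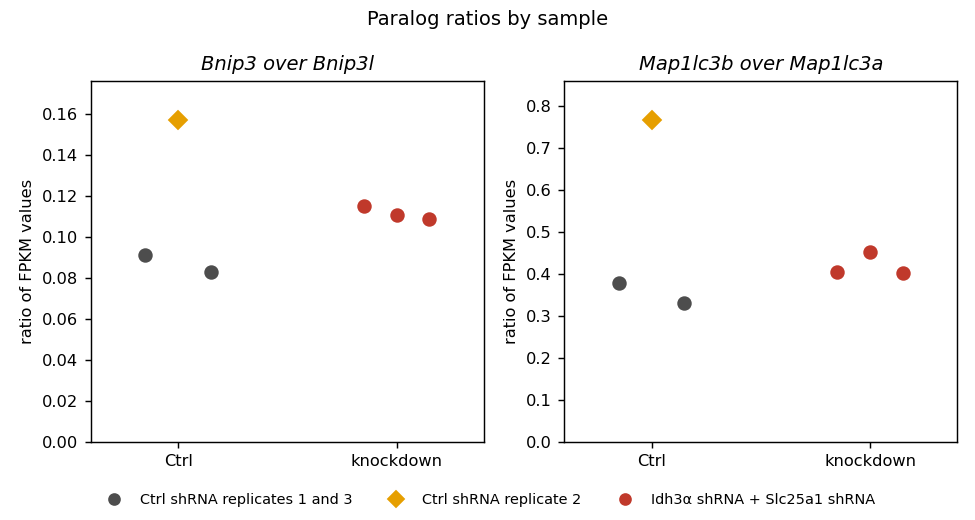
Ratios of FPKM values within 2 pairs of paralogs (vertical axes from 0) in each library. The knockdown points, 0.109 to 0.115 for Bnip3 over Bnip3l and 0.402 to 0.451 for Map1lc3b over Map1lc3a, sit above Ctrl shRNA replicates 1 and 3 and below replicate 2.

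Genes known to share regulators with *Bnip3* and *Sqstm1*, and some of these regulators themselves, were examined beside them. Of 25 hypoxia-responsive genes and regulators, 23 were tested and 3 rose without Ctrl shRNA replicate 2, none with all libraries (median log2 fold change -0.02 and 0.02). The list did not move 1 way: without that library 11 of the 23 were above 0. At an unadjusted edgeR p under 0.05, 5 were higher and 3 lower in the knockdown, and DESeq2 called 3 higher and 1 lower. *Slc2a1*, the glucose transporter GLUT1, was at 16.3, 15.3 and 12.4 CPM over the controls, against 27.7, 24.9 and 26.2 CPM in knockdown cells (log2 fold change 0.86 ± 0.13, edgeR adjusted p = 0.0180 without the library). *Hk2*, a hexokinase that sits on the outer mitochondrial membrane, was at 6.46, 6.28 and 6.17 CPM and at 12.1, 10.3 and 13.5 CPM (0.92 ± 0.15, adjusted p = 0.0229). *Ldha*, lactate dehydrogenase A, was at 416, 427 and 429 CPM and at 568, 548 and 536 CPM (0.37 ± 0.07, adjusted p = 0.0325). With all libraries the log2 fold changes of *Slc2a1*, *Hk2* and *Ldha* were 0.84 ± 0.13, 0.93 ± 0.14 and 0.38 ± 0.08 (adjusted p = 0.144, 0.144 and 0.245). For these 3 genes, named for passing the threshold, every knockdown library was above every control. Groups did not overlap for 25.4% of all genes tested. The level of *Bnip3* in the 5 libraries other than Ctrl shRNA replicate 2 ran from 14.2 to 16.8 CPM. Of the 9 pathway genes that rose, ACGTG was found upstream of 4 (*Slc2a1*, *Hk2*, *Ldha* and *Gclm*) and of no annotated start of the other 5 (*Tomm40*, *Nfe2l2*, *Txnrd1*, *Srxn1* and *Osgin1*). The share was 21.3% over promoters of protein-coding genes tested, counted per promoter, whereas *Ldha* and *Txnrd1* have several starts. Listed genes that did not rise were not examined, so a link between these letters and the rise was not tested.

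A list of 20 genes held targets that NRF2 or TFEB share with *Sqstm1*, and genes of NRF2, TFEB and relatives of TFEB. Of these, 19 were tested and 5 rose without Ctrl shRNA replicate 2, none with all libraries (median log2 fold change -0.03 and 0.01). *Nfe2l2*, which encodes NRF2 itself, was at 440, 969 and 430 CPM over the controls, against 616, 689 and 594 CPM in knockdown cells (0.53 ± 0.08, edgeR adjusted p = 0.0194 without the library), so that Ctrl shRNA replicate 2 was the highest of the 6 and the log2 fold change with it was 0.05 ± 0.33 (adjusted p = 0.956). *Gclm*, a subunit of the enzyme that starts glutathione synthesis, was at 75.4, 82.0 and 75.9 CPM and at 103, 111 and 104 CPM (0.48 ± 0.07, adjusted p = 0.0155). *Txnrd1*, thioredoxin reductase, was at 637, 556 and 626 CPM and at 876, 818 and 882 CPM (0.43 ± 0.07, adjusted p = 0.0211). *Srxn1*, sulfiredoxin, and *Osgin1*, a stress-induced growth inhibitor, also rose, by 0.42 ± 0.08 (adjusted p = 0.0380) and 0.44 ± 0.08 (adjusted p = 0.0398). In *Gclm*, *Txnrd1*, *Srxn1* and *Osgin1* all knockdown libraries lay above all 3 controls. This order is not separate evidence, because the genes were named for passing the threshold, and groups did not overlap for 25.4% of all genes tested. With all libraries their log2 fold changes were 0.45 ± 0.07, 0.50 ± 0.10, 0.47 ± 0.09 and 0.50 ± 0.09 (adjusted p = 0.174, 0.227, 0.179 and 0.180). DESeq2 called 9 of the 142 genes tested from all 8 pathway lists with all 6 libraries, 8 higher and 1 lower in the knockdown, which is 6.34% against 2.51% of all genes tested. Without Ctrl shRNA replicate 2 it called 14, 11 higher and 3 lower, which is 9.86% against 6.58%. EdgeR without that library called 6.34% of the listed genes against 1.79% of all genes tested. The 9 edgeR calls without Ctrl shRNA replicate 2 depended on single libraries. When Ctrl shRNA replicate 3, knockdown replicate 1 or knockdown replicate 3 was also left out, 0 listed genes were called (0.263%, 0.239% and 0.129% of all genes tested). Without knockdown replicate 2, 5 were called, all among the 9 (0.762% of all genes tested). The refit without Ctrl shRNA replicate 1 called 12, 8 of them among the 9 (5.09%). Limma on log2(FPKM + 1) called 0 (0.251%), and a fit with the replicate block called 13, all 9 included (3.03%).

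**Figure D5:**
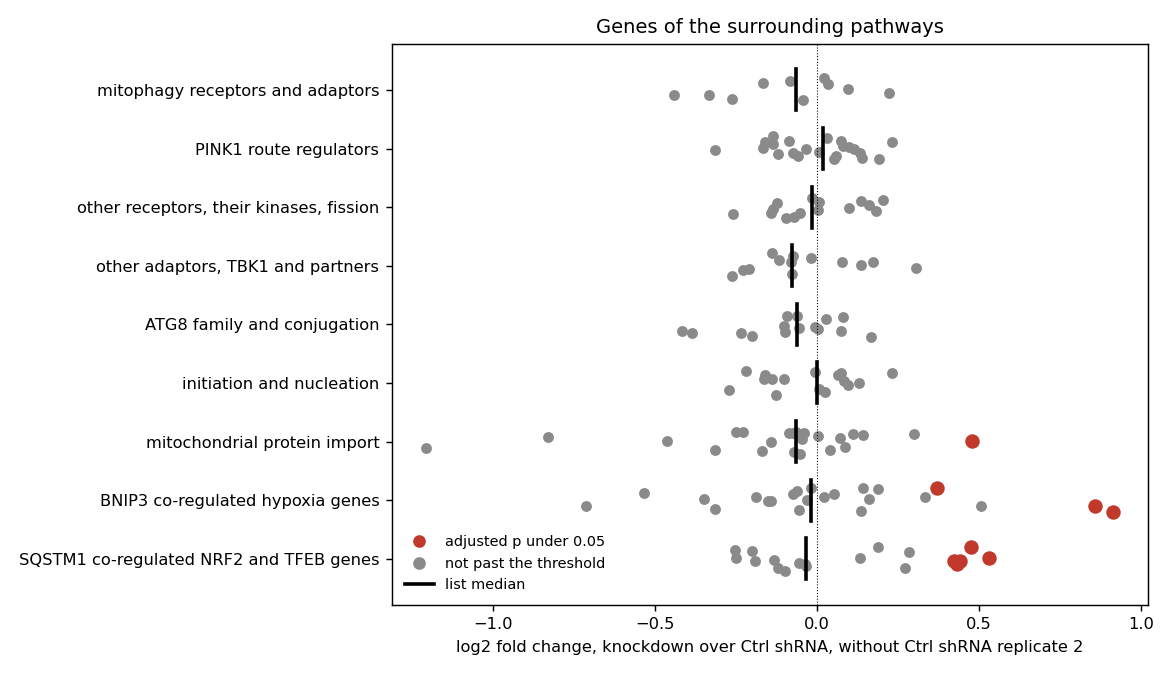
Log2 fold changes, knockdown over Ctrl shRNA, from edgeR without Ctrl shRNA replicate 2 (horizontal axis), for the 10 genes and 8 lists of surrounding pathway genes; red points have an adjusted p under 0.05 and black bars are medians. Red points appear in 3 rows, 1 for protein import, 3 for hypoxia genes and 5 for NRF2 and TFEB genes, and all lie above 0.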

How the data were processed

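RNA-seq of 3 Ctrl shRNA and 3 Idh3α shRNA + Slc25a1 shRNA samples was analysed, grouped by their labels. The authors deposited whole-number read counts for 54532 genes and FPKM values. The deposited FPKM equal the counts divided by gene length and by a library size that was 0.716 of the total count in Ctrl shRNA replicate 2 and 1.04 to 1.08 of it in the others. The submitters' processing notes name HISAT2 2.0.5, StringTie 1.3.3b, featureCounts 1.5.0-p3 and mm10, and the labels name Trinity. Use of strand is not given in the sources used here. Of the genes, 54409 were in GENCODE M21 (GRCm38), 98.3% with the same start and end. No per-sample column was left unused (0).

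With edgeR 4.0.16 (R 4.3.3), genes kept by filterByExpr were scaled by TMM and compared by the quasi-likelihood F-test without covariates, using Benjamini-Hochberg adjustment over all genes tested (threshold 0.05), with all libraries and without Ctrl shRNA replicate 2. CPM use the TMM factors of all 6 libraries. Paralog ratios were tested with a two-sided exact permutation test. The scripts were tested on simulated counts. The members, lists and tests were chosen with earlier results of these data known. Named genes are the 10 members, the targeted genes and, in each of 8 pathway lists, the genes past the threshold (at most 6), or the 2 with the lowest p without Ctrl shRNA replicate 2 where fewer than 2 passed. The markers and the pseudogene were named after their values were seen. Some items are not reported here. The gene named *March5* was matched by its identifier, and *Car9*, *Phb* and *Ero1l* by their mouse symbols.

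Alternatives were median-of-ratios size factors, no count filter, a floor of 10 counts in every sample, no scaling beyond library size, DESeq2 1.42.0, limma 3.58.1 voom with sample quality weights, limma on log2(FPKM + 1) with a mean FPKM of at least 0.5 or no filter and on log2(FPKM + 0.1), a replicate block, and each library left out. After seeing the data, limma on log2(FPKM + 1) and the replicate block were added without Ctrl shRNA replicate 2. Chi-square per degree of freedom between replicates ran from 5.67 to 454, so each sample counted as 1 replicate. With 3 samples a group, precision is limited by the spread between libraries, not by depth: the members had at least 408 counts in every library.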

Additional observations from a re-analysis of the deposited data

How the results depend on the processing

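With all 6 libraries, 10 genes passed the edgeR threshold, 1 with library size as the only scaling, 353 with DESeq2, 2298 with limma voom and sample quality weights, and 0 with the replicate block. Without Ctrl shRNA replicate 2, 281 passed, 1407 with no count filter, 820 with DESeq2, 34 with limma on log2(FPKM + 1) and 476 with the replicate block, the last pair chosen after seeing the data. Leaving out 1 library gave 0 to 281 genes with all libraries and, without Ctrl shRNA replicate 2, 20 to 841, the most without Ctrl shRNA replicate 1, where the lone control left is assumed to vary like the knockdown libraries. The cause of these differences was not tested.

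Of the 10 mitophagy genes, 0 passed in the edgeR fits with and without Ctrl shRNA replicate 2. With all libraries DESeq2 called 1 (2.51% of all genes tested were called) and limma voom with sample quality weights 4 (15.0%). Without the library, DESeq2 called 3 (6.58%), no count filter 2 (5.16%), library size alone 1 (1.80%), and leaving out a further library 0 to 2, the 2 without Ctrl shRNA replicate 1 (5.09%). Of the listed pathway genes, 0 passed with all libraries, 9 with DESeq2 (6.34% against 2.51% of all genes tested), 24 with sample quality weights (16.9% against 15.0%) and 0 to 9 with 1 library left out. Without Ctrl shRNA replicate 2, 9 passed (6.34% against 1.79%), 14 with DESeq2 (9.86% against 6.58%), 16 with no count filter (10.9% against 5.16%), 13 with the replicate block (9.15% against 3.03%), 0 with limma on log2(FPKM + 1), which ended all 9 calls, and 0 to 12 with a further library left out. For the listed genes, all but DESeq2 and library size were alternatives chosen after seeing the data. The replicate block called 0 of the 10 in either fit. The deviations of same-numbered samples had correlations of -0.21, -0.16 and 0.02, and those of other pairs ran from -0.05 to 0.22. With 3 samples a group and 1 control library apart, these values cannot decide whether the numbers pair the samples.

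Directions turned for *Bnip3* with sample quality weights (0.15) and without Ctrl shRNA replicate 2 (0.10, range over single libraries left out -0.72 to 0.10), and for *Sqstm1* with sample quality weights (-0.010). Without Ctrl shRNA replicate 2, they turned when 1 more library was left out for *Sqstm1* (range -0.052 to 0.12), *Phb2* (-0.0044 to 0.088) and *Tomm20* (-0.13 to 0.071), and for *Tomm20* with the replicate block (0.036). The sign turned without Ctrl shRNA replicate 1 for *Sqstm1* and *Phb2*, and without Ctrl shRNA replicate 3 or knockdown replicate 2 for *Tomm20*. The remaining 152 of 160 and 97 of 110 fold changes under alternatives kept their direction and side of the threshold. With library size alone the median log2 fold change of all genes was 0.16 with all libraries and -0.0024 without Ctrl shRNA replicate 2. Leaving out each library moved the difference in the log2 ratio of *Bnip3* to *Bnip3l* between -0.10 and 0.36, turning it without Ctrl shRNA replicate 1 (-0.03) or 3 (-0.10), and that of *Map1lc3b* to *Map1lc3a* between -0.36 and 0.24, turning it without Ctrl shRNA replicate 2 (0.24).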
